A study of Mus musculus with 6 samples.

Results

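A set of 7 genes for receptors of natural killer (NK) cells were followed in T cells separated from wild type mice and from mice in which the maintenance DNA methyltransferase gene Dnmt1 is floxed and Cre is driven by Foxp3. They were chosen by symbol from the platform annotation, as every probe set whose only gene symbol was Klrb1b, Klrc1, Klrd1, Klrk1, Klrg1, Ncr1 or Crtam. All 7 were measured, by 11 of the 20380 probe sets with 1 symbol. Klrb1b had 4 probe sets, Klrc1 had 2 and the others had 1 each. Each gene was read from its brightest probe set, which gave 12393 genes in all. A further probe set carried the symbols of both Klrb1b and Klrb1c and was kept apart.

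Total RNA of magnetically separated CD4+CD25+ cells was hybridised to 6 arrays. The wild type group (3 arrays) came from C57BL6 mice with no allele or agent named. The knockout group (3 arrays) came from fl-DNMT1/Foxp3cre mice, labelled with the same strain, in which Cre is made by cells that express Foxp3, the lineage factor of regulatory T cells (Treg). The sources used here give neither age nor sex of the mice, nor whether the 3 samples of a group came from 3 animals. P-values therefore reflect sample-to-sample spread alone, which may be technical. The controls are not described as carrying the Cre or a floxed allele, whose own effects thus cannot be separated from loss of Dnmt1. Values are log2 expression summaries made by robust multi-array averaging (RMA), with array medians of 5.69 to 5.77. The targeted gene, Dnmt1, read 9.43 to 9.56 in wild type while knockout replicates 1, 2 and 3 read 8.67, 8.89 and 9.34. The difference of -0.53 did not pass the test (limma adjusted p = 0.152 over all genes). The sources used here do not place its probe set inside or outside the deleted part, so this reading is no check of the deletion.

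NK receptors set the threshold at which NK cells and some T cells kill or secrete cytokines. Many activating receptors signal through adaptor proteins, such as that encoded by Hcst for NKG2D and that encoded by Fcer1g for NKp46. Inhibitory receptors instead carry tyrosine motifs that recruit phosphatases such as the product of Ptpn6. Klrk1 encodes NKG2D, a receptor for stress-induced ligands, and Ncr1 encodes NKp46, an immunoglobulin-like receptor much used to define NK cells. Crtam encodes an immunoglobulin-family receptor of activated NK and cytotoxic T cells that binds the adhesion molecule encoded by Cadm1. Klrc1 encodes NKG2A, which pairs with CD94, the product of Klrd1, to form an inhibitory receptor for a non-classical class I molecule. Klrd1 also pairs with the activating chains encoded by Klrc2 and Klrc3, so it belongs to neither side alone. Klrb1b encodes an inhibitory receptor for the lectin encoded by Clec2d, and Klrg1 an inhibitory receptor for cadherins, found on differentiated effector T cells and on effector Treg.

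Because Dnmt1 copies methylation at CG dinucleotides, the CG content of the genes' starts is shown first. The RefSeq promoter table (GRCm38.p6) held windows from 250 bases before to 50 bases after a start for 4 of the 7 genes. The windows are given 5′ to 3′ on the strand of the gene, with CG in capitals. Klrc1 lies on the minus strand at chr6:129678924-129679223, Klrk1 on the minus strand at chr6:129623815-129624114, Klrb1b on the minus strand at chr6:128826266-128826565 and Ncr1 on the plus strand at chr7:4337465-4337764. For Klrb1b and Ncr1 the first of 2 listed starts is shown, and the other had the same CG count.
Klrc1: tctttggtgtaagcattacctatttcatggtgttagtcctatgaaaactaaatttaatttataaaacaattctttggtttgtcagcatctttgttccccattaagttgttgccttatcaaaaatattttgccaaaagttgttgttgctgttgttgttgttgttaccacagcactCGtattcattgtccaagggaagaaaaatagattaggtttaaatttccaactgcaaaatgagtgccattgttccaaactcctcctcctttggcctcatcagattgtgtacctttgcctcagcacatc
Klrk1: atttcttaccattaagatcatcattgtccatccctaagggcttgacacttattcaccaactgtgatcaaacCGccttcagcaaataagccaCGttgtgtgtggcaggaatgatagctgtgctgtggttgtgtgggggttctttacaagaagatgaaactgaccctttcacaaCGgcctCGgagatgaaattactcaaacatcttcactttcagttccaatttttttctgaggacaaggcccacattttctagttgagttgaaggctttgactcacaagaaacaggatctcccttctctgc
Ncr1: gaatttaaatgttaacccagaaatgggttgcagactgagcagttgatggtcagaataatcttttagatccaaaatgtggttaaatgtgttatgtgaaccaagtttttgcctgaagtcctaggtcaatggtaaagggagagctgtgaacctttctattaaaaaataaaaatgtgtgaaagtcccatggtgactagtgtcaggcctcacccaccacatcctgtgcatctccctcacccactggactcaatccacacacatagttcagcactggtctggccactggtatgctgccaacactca
Klrb1b: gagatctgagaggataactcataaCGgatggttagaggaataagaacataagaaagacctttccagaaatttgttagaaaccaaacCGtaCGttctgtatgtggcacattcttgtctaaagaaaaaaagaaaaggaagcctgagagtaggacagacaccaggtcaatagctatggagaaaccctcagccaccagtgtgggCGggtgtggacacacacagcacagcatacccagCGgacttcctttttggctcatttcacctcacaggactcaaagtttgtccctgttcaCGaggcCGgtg
The Klrc1 window held 1 CG, the Klrk1 window 4, the Ncr1 window 0 and the Klrb1b windows 7 each. Over all 32851 promoter windows the median was 7, and 5.43% held none. The Runx core motif TGTGGT, searched on both strands (ACCACA on the other), occurred in the Klrc1, Klrk1 and Ncr1 windows (2 matches in that of Ncr1) and in 16.8% of all windows. It was not found in the Klrb1b windows. These are matches of letters in these windows only, and no methylation was measured here.

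Of the 7 genes, 4 rose in the knockout and 0 fell. Ncr1, Klrb1b, Klrc1 and Crtam passed the test at an adjusted p under 0.05, and Klrk1, Klrd1 and Klrg1 did not. Over all genes tested, 165 were called higher (1.33%) and 71 lower (0.573%). All 7 differences were positive, with a median of 1.27 on the log2 scale against -0.01 over all genes. In 5 of the 7 (Ncr1, Klrb1b, Klrc1, Crtam and Klrk1) each knockout array lay above each wild type array, as did 1364 genes, or 11.0% of all genes. The plot of the 7 genes by array shows these groups side by side. In such a mixture of cells, more cells of a type and more RNA per cell cannot be told apart.

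**Figure D1:**
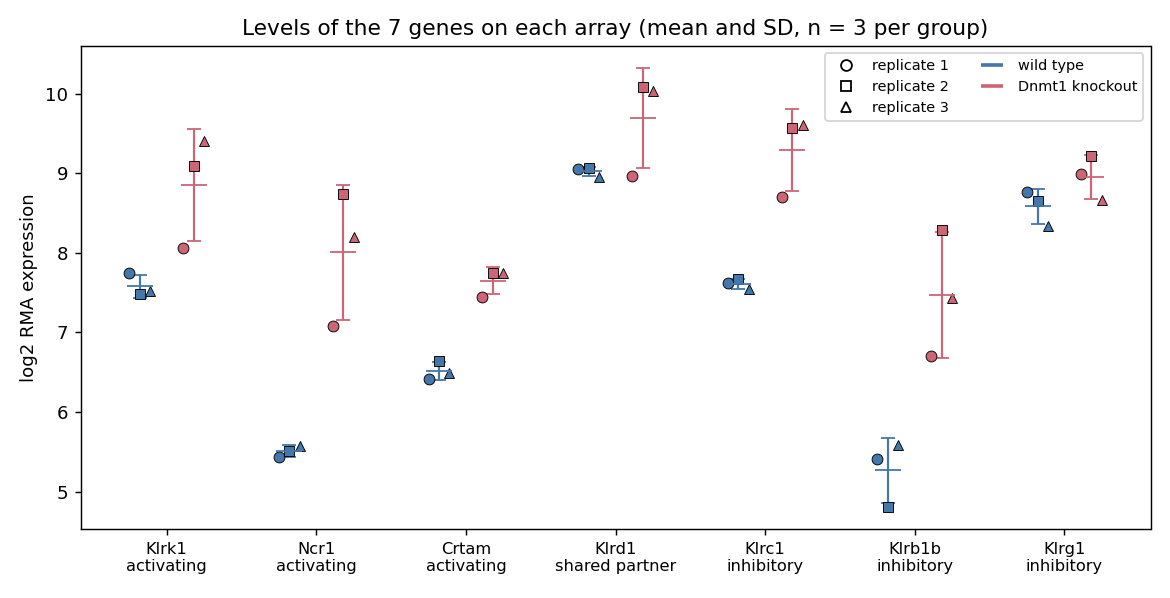
Log2 RMA expression (vertical axis) of the 7 genes on 3 wild type (blue) and 3 knockout (red) arrays, with mean and SD as bars and replicate numbers as point shapes. The knockout points lie above the wild type points in 5 genes, and overlap them in Klrd1 and Klrg1. Levels of different genes are not comparable.

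Among the activating receptors, Ncr1 had the greatest difference. It read 5.43, 5.51 and 5.58 in wild type, against 7.08, 8.74 and 8.19 in knockout replicates 1, 2 and 3. All knockout arrays were high, the first least so. The mean went from 5.51 ± 0.07 to 8.01 ± 0.85 (SD, n = 3), a 5.65-fold rise (95% interval 3.12 to 10.2, unadjusted, limma adjusted p = 0.0243). In wild type 48.0% of probe sets read lower than that of Ncr1, and in the knockout 77.7%. RMA compresses low levels, so that folds starting near the floor are understated.

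Crtam read 6.41, 6.64 and 6.49 in wild type and 7.45, 7.74 and 7.75 in the knockout. Its knockout arrays lay close together, within 0.30. The mean went from 6.51 ± 0.12 to 7.65 ± 0.17 (SD, n = 3), a 2.19-fold rise (95% interval 1.83 to 2.62, limma adjusted p = 0.00662), and Crtam had the lowest p of the 7, ranking 20 of 12393 genes. Klrk1 read 7.74, 7.48 and 7.51 in wild type and 8.06, 9.08 and 9.40 in the knockout. The groups did not overlap, but knockout replicate 1 stood only 0.48 above the wild type mean and replicates 2 and 3 stood 1.51 and 1.83 above it. The mean difference of 1.27 (SE 0.31) corresponds to 2.41-fold and did not pass the test (adjusted p = 0.0983).

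Among the inhibitory receptors, Klrc1 read 7.62, 7.67 and 7.54 in wild type and 8.70, 9.57 and 9.61 in the knockout. The mean went from 7.61 ± 0.07 to 9.29 ± 0.51 (SD, n = 3), a 3.21-fold rise (95% interval 2.22 to 4.65, limma adjusted p = 0.0212). Its other probe set read 5.15, 4.73 and 4.52 in wild type and 6.01, 7.09 and 6.97 in the knockout. Its difference of 1.89 (SE 0.29) passed too, at a limma adjusted p of 0.0250 over all probe sets, of which 1.14% were called higher. Both probe sets thus had all knockout arrays above all wild type arrays, with replicate 1 the lowest.

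Klrb1b read 5.41, 4.80 and 5.59 in wild type and 6.70, 8.28 and 7.43 in the knockout. The mean went from 5.27 ± 0.41 to 7.47 ± 0.79 (SD, n = 3), a 4.61-fold rise (95% interval 2.48 to 8.58, limma adjusted p = 0.0403). The suffix of this probe set marks probes shared by several transcripts, so that signal from near-identical Klrb1 relatives cannot be told apart. A second Klrb1b probe set, without such a suffix, went from 4.22 ± 0.51 to 6.56 ± 0.60, a difference of 2.34 (adjusted p = 0.0220 over all probe sets). The remaining pair were dim, with only 18.6% and 5.06% of probe sets reading lower in wild type. Their differences were 0.53 (adjusted p = 0.0596) and 0.25 (adjusted p = 0.183), and in each the knockout arrays lay above the wild type arrays. The probe set annotated to both Klrb1b and Klrb1c read 7.29, 7.10 and 7.31 in wild type and 6.73, 7.60 and 8.05 in the knockout. There the groups overlapped, with a difference of 0.23 (adjusted p = 0.743 over all probe sets that are not controls). The plot of these probe sets shows the brighter Klrb1b pair moving by more than the dim pair.

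**Figure D2:**
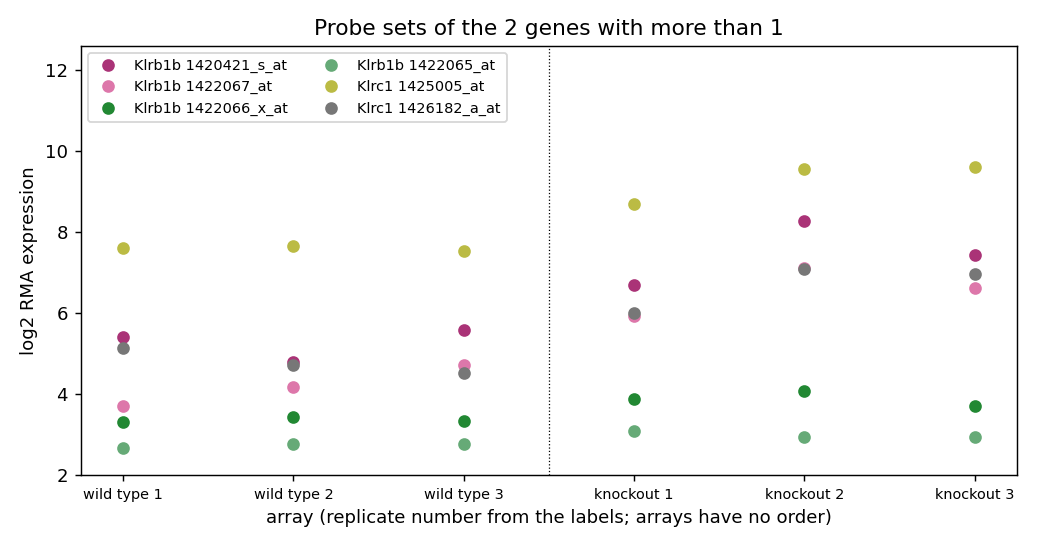
Log2 RMA expression (vertical axis) of the 4 Klrb1b and 2 Klrc1 probe sets on each of the 6 arrays (horizontal axis, wild type left of the dotted line). All 6 read higher on each knockout array than on any wild type array, by 0.25 to 2.34 on average.

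Klrg1 read 8.76, 8.65 and 8.34 in wild type and 8.99, 9.21 and 8.66 in the knockout. The groups overlapped, since knockout replicate 3 lay below wild type replicate 1. The difference was 0.37 (SE 0.16, 1.29-fold, 95% interval 0.99 to 1.68), and the gene did not pass (limma adjusted p = 0.292). It was the smallest of the 7 differences, and the only one in which knockout replicate 3 was the lowest of its group.

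Klrd1, the partner chain, read 9.05, 9.06 and 8.95 in wild type and 8.97, 10.09 and 10.03 in the knockout. Knockout replicate 1 lay within the wild type range, and the other knockout arrays stood about equally far above it, by 1.06 and 1.00 over the wild type mean. The mean difference was 0.67 (SE 0.28, 1.59-fold, limma adjusted p = 0.265). On each knockout array Klrc1 stood further above its wild type mean than Klrd1, by 1.15, 0.90 and 0.99 in replicates 1, 2 and 3. The mean of this excess was 1.01, with an SD of 0.02 for the wild type and 0.13 for the knockout arrays (exact permutation test, two-sided p = 0.1, the smallest that 3 against 3 arrays allow). For Klrk1, the gene next to Klrd1, the excess over Klrd1 was 0.60 (exact permutation p = 0.1), and adjusted over the 2 pairs compared both p-values stayed at 0.1. Both pairs were chosen after the values of each array were seen, so these p-values lend no independent weight.

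Differences were positive for all activating and all inhibitory genes. Of the 3 activating genes 2 were called higher, and of the 3 inhibitory genes 2 were called higher. The median difference was 1.27 (range 1.13 to 2.50) for the activating genes and 1.68 (range 0.37 to 2.21) for the inhibitory genes. Averaged over its 3 genes, the activating side stood 1.00, 1.99 and 1.91 above wild type on knockout replicates 1, 2 and 3, and the inhibitory side 0.98, 1.87 and 1.41. The activating side thus exceeded the inhibitory side by 0.02, 0.12 and 0.50, a mean of 0.21 with an SD of 0.25 over the 3 knockout arrays. The wild type arrays alone ranged from -0.12 to 0.12 on this measure. With the probe sets of a gene averaged, which brings in the dim Klrb1b probe sets, this excess was 0.47, and without knockout replicate 3 it was 0.069. A score over chosen genes was given no p-value.

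**Figure D3:**
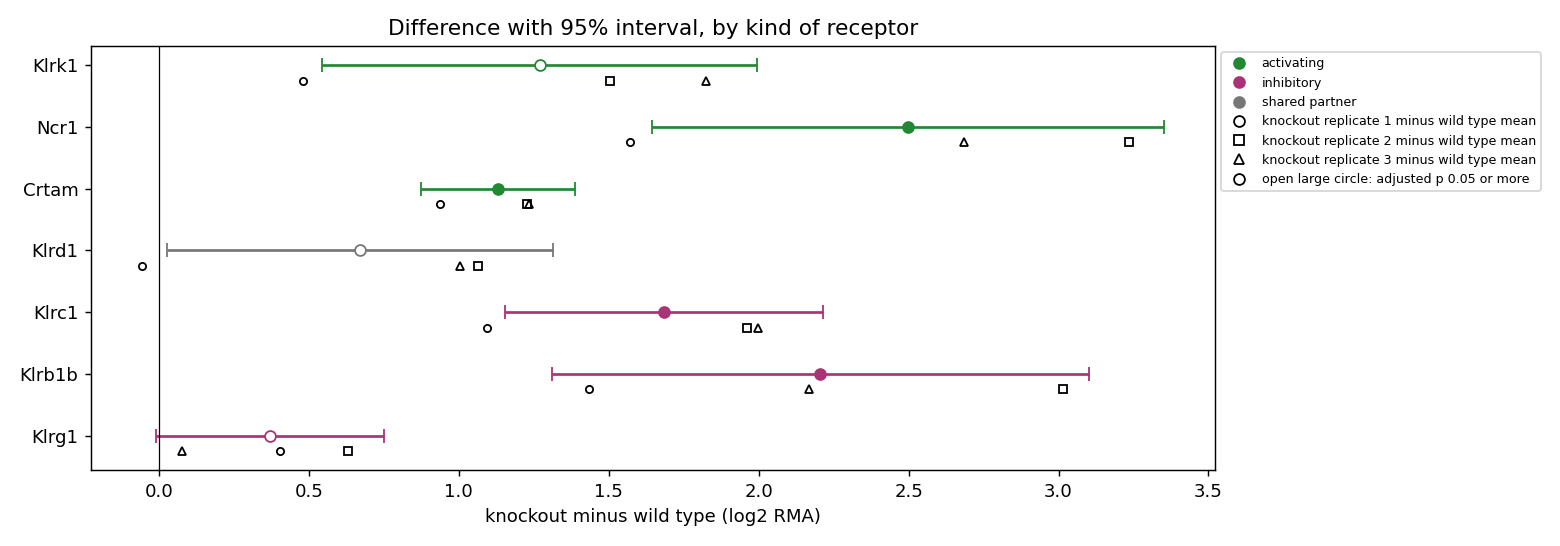
Difference between knockout and wild type on the log2 RMA scale (horizontal axis) with its unadjusted 95% interval for the 7 genes, coloured by kind of receptor, and filled where the adjusted p is under 0.05. Small symbols give each knockout array minus the wild type mean. Activating genes spanned 1.13 to 2.50 and inhibitory genes 0.37 to 2.21, so that the ranges overlapped.

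Klrd1, Klrk1, Klrc3, Klrc2 and Klrc1 stand in this order as 5 consecutive protein-coding genes on mouse chromosome 6 in the RefSeq table. The outer genes and Klrk1 had positive differences, while those of the enclosed genes for activating CD94 partners were near 0. Klrc2 read 2.44 to 2.70 in wild type and 2.42 to 2.55 in the knockout, a difference of -0.07 (limma adjusted p = 0.748). Klrc3 read 2.48 to 2.64 in wild type and 2.24 to 2.47 in the knockout, a difference of -0.19 (adjusted p = 0.325). Both lay among the dimmest readings of the arrays, where a change may not be detectable. Of the 4 other measured NK lectin receptor genes (Klrb1a, Klrb1f, Klrc2 and Klrc3), 0 passed. Klrb1f, a relative of Klrb1b, came closest, reading 5.03 to 5.50 in wild type and 6.06 to 6.90 in the knockout (adjusted p = 0.0660).

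The Ly49 receptors, lectin-like receptors for class I molecules encoded further along the same chromosome, did not share one direction. Of 7 measured genes 1 was called higher and 2 lower, with a median difference of -0.01, against 4 higher and 0 lower of the 7 genes described above. Klra8 read 6.41, 5.70 and 6.08 in wild type and 4.04, 3.69 and 4.10 in the knockout (limma adjusted p = 0.00500). Klra7 had a difference of -0.97 (adjusted p = 0.0212) and Klra5, at 3.75 to 4.02 in wild type, one of 0.67 (adjusted p = 0.0212). The difference between the families was not tested, and all 7 Ly49 genes lay below the median gene in both groups. Ly49 genes are near-identical copies, so that a probe set can read more than 1 of them.

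The measured ligands and signalling partners of the 7 receptors mostly did not pass the test. Of 15 listed ligand genes 5 were measured and 1 was called higher, Cdh1, encoding a cadherin bound by Klrg1. The listed ligand genes of NKG2D and of NKG2A with CD94 were not among those measured. Cdh1 read 2.90 to 3.14 in wild type and 3.41 to 3.57 in the knockout (limma adjusted p = 0.0433), which is near the floor in both groups. Cdh2 and Cdh4, for other cadherins of the list, had differences of -0.20 (limma adjusted p = 0.555) and -0.05 (adjusted p = 0.833). Clec2d, encoding the ligand of Klrb1b, had a difference of -0.35 with groups that did not overlap (adjusted p = 0.213). Cadm1, encoding the ligand of Crtam, read 3.75 to 4.19 in wild type and 4.16 to 4.38 in the knockout (adjusted p = 0.229).

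Of 19 measured genes of activating adaptors and downstream signalling, 0 passed, with a median difference of -0.0016. Hcst, the adaptor of NKG2D, had a difference of 0.01 (limma adjusted p = 0.968). Tyrobp, the adaptor shared by NK and myeloid cells, read 9.37, 9.09 and 8.81 in wild type and 9.24, 10.82 and 10.00 in the knockout, with overlapping groups (adjusted p = 0.240). Fcer1g, an adaptor used by NKp46, had a difference of 1.09 (adjusted p = 0.170), the lowest p of this list. Cd247, another signalling chain of the list, had one of -0.13 (adjusted p = 0.625). Of 9 measured genes of inhibitory signalling 0 passed, with a median difference of -0.12. Differences were positive for 3 and negative for 6 of them. In 3 each knockout array lay above each wild type array, and in 5 below (over all 12393 genes, 1364 and 1732). Ptpn6, encoding the phosphatase SHP-1, had a difference of 0.14 (adjusted p = 0.377) and the adaptor gene Crk one of -0.45 (adjusted p = 0.0976).

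Among 9 other measured surface receptors of NK cells 7 differences were positive and 2 negative. In 4 of the 9 each knockout array lay above each wild type array and in 0 below, against 11.0% above over all genes. By the test 1 of the 9 rose. Cd7, a surface molecule of T and NK cells, read 9.08, 8.88 and 9.01 in wild type and 10.34, 11.02 and 9.99 in the knockout, a 2.75-fold rise (limma adjusted p = 0.0298). Of 14 measured transcription factor and cytokine receptor genes of NK and cytotoxic cells 2 rose, namely Il18r1, a chain of the interleukin-18 receptor (2.43-fold, adjusted p = 0.0226), and Prdm1, encoding the repressor Blimp1 (1.37-fold, adjusted p = 0.0379). With 1 array left out, Il18r1 was called in 2 of 6 fits and Prdm1 in 1 of 6. Eomes and Tbx21, T-box factors of NK cells, had differences of 0.07 (adjusted p = 0.802) and 0.37 (adjusted p = 0.442). In this list 11 differences were positive and 3 negative. In 5 genes each knockout array lay above each wild type array, and in 2 below (over all 12393 genes, 1364 and 1732). Il18rap (1.15, limma adjusted p = 0.0516) and Id2 (1.10, adjusted p = 0.0569) were among the 5. Tox (-0.65, adjusted p = 0.0620) was among the 2. Of 14 measured cytotoxic effector genes 0 passed, with a median difference of 0.46. Ctsw, encoding a cathepsin of cytotoxic cells, had the lowest p among them, at a difference of 0.62 (adjusted p = 0.0620). Differences were positive for 11 and negative for 3 of the 14 effector genes. In 6 the knockout arrays lay above all wild type arrays and in 0 below. Over all 12393 genes, 1364 (11.0%) lay above and 1732 below. The granule genes Gzma and Prf1 had differences of -0.66 (adjusted p = 0.278) and 0.52 (adjusted p = 0.143).

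Markers of other cells that a CD4+CD25+ separation can hold were read beside these genes, as RMA levels summed on the linear scale. Of 7 measured NK cell markers 0 were called higher and 1 lower (Klra8), and none was listed at 0. Of the 7 markers, 4 had positive and 3 had negative differences. Their sum was 2111 to 2351 in wild type, against 1796, 3326 and 2951 in knockout replicates 1, 2 and 3. The overlap came with Gzma, which read 9.59 to 9.96 in wild type and 8.46 on knockout replicate 1. Without Gzma, an alternative chosen after its values were seen, the sum was 1342 to 1389 in wild type and 1443, 2531 and 2286 in knockout replicates 1, 2 and 3, so that the groups did not overlap. In 1 of the 7 markers, Klra8, each knockout array lay below each wild type array (1732 of all 12393 genes). In 3 of the 7 each lay above, as for 5 of the 7 receptors and 11.0% of all genes, though none of these 3 markers passed the test. They were Cd244a, encoding the receptor 2B4, with a difference of 1.41 (limma adjusted p = 0.104), Nkg7, encoding a granule membrane protein, with 0.77 (adjusted p = 0.155), and Prf1. Nkg7 was on each array the brightest of the 6 markers left without Gzma, so it weighed most in that sum. As the sum was chosen after the values were seen, it lends no independent weight. Itga2, an NK marker, read 3.34 to 3.49 in wild type and 3.23 to 3.56 in the knockout. Both CD8 T cell markers had negative differences that did not pass, with Cd8b1 at -0.61 (limma adjusted p = 0.276), and their sum was 357 to 660 in wild type and 252 to 431 in the knockout.

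The marker genes that rose beside the receptors were mostly those of neutrophils. Of 4 measured markers of gamma delta and NKT cells 2 rose, the gamma chain segments Trgv1 (3.85-fold, limma adjusted p = 0.0243) and Trgv4 (2.92-fold, adjusted p = 0.0423), and the sum was 757 to 1107 in wild type and 2014 to 4413 in the knockout. Sox13 and Zbtb16, the others, had differences of 1.18 (adjusted p = 0.174) and 0.07 (adjusted p = 0.942). Of 14 measured neutrophil markers 9 rose, led by S100a8 (adjusted p = 0.00950), and the sum was 1683 to 2735 in wild type and 14210 to 62923 in the knockout. Of 12 monocyte and macrophage markers 1 rose, Cd14, with overlapping sums of 1198 to 2203 and 2007 to 5918. All 12 differences were positive, with a median of 0.64. In 4 of the 12 each knockout array lay above each wild type array, and in 0 below, against 11.0% above over all genes. Of 10 Treg markers 3 fell (Nrp1, Ikzf2 and Il2ra), with overlapping sums of 9416 to 10084 and 5660 to 9657. Of the 10 differences 9 were negative and 1 positive. In 6 of the 10 each knockout array lay below each wild type array, and in 0 above. Over all 12393 genes, 1732 lay below and 1364 above. Foxp3 went from 9.50 ± 0.02 to 8.84 ± 0.42 (SD, n = 3, limma adjusted p = 0.142). Of 9 T cell markers and 7 B cell markers 0 passed, with T cell sums of 20403 to 21438 and 17221 to 22309, and B cell sums of 1586 to 3675 and 1313 to 2385. Knockout replicate 1 had the lowest sum of its group in 6 of the 8 marker lists, all but those of Treg and T cells, and was also the lowest knockout array for 6 of the 7 receptor genes. Which cells carried the receptor transcripts was not tested, and the part of these marker shifts in the differences was not tested.

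**Figure D4:**
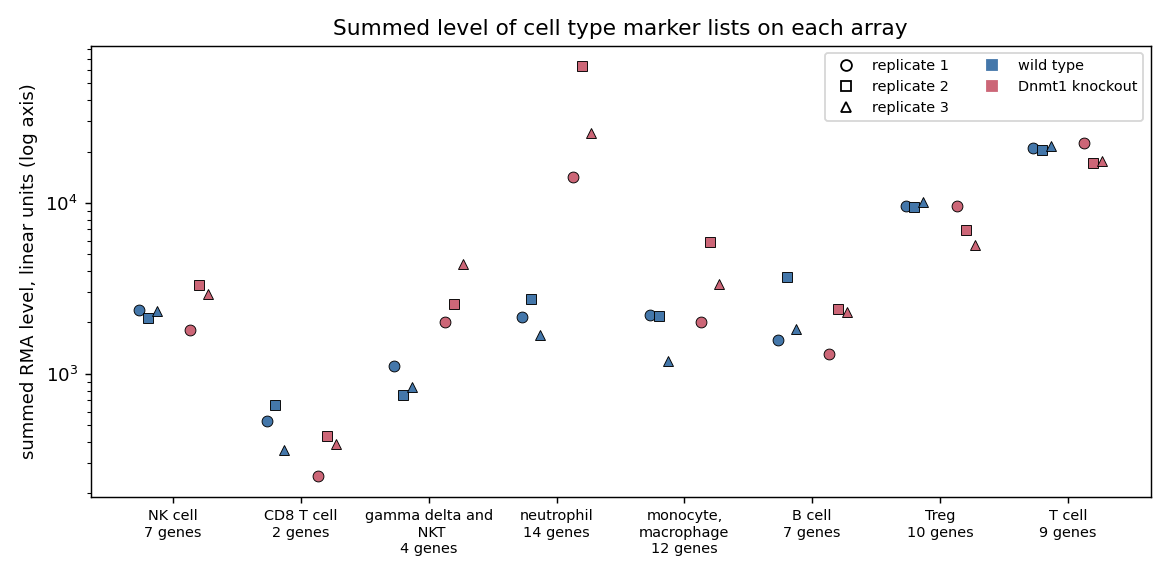
Summed linear RMA level (vertical log axis) of 8 marker lists on each wild type (blue) and knockout (red) array, with replicate numbers as point shapes. Neutrophil sums of 14210 to 62923 in the knockout lie above the 1683 to 2735 of wild type, while CD8 T cell sums and NK sums overlap between the groups. NK sums are drawn with all measured markers, Gzma included. Without Gzma, a choice made after its values were seen and so of no independent weight, they did not overlap.

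Calls depended on the arrays in the fit. With all 6 arrays, 4 of the 7 genes were called, and with 1 array left out this ranged from 0 to 6. Klrc1 lost its call without wild type replicates 1, 2 and 3 (limma adjusted p = 0.0954, 0.0928 and 0.107) and without knockout replicate 3 (0.0515). Ncr1 lost it without the same arrays (0.107, 0.112, 0.120 and 0.0713), and so did Klrb1b (0.138, 0.154, 0.132 and 0.102). Crtam lost it without wild type replicates 1 (0.0541) and 3 (0.0552). Without knockout replicate 1 both Klrk1 (difference 1.67) and Klrd1 (1.03, against 0.67 with all arrays) were called at an adjusted p of 0.00325. With trend and robust variance Ncr1 (0.0515) and Klrb1b (0.0742) also lost the call, and with array weights Klrk1 gained it (0.0484). With its 4 probe sets averaged, Klrb1b had a difference of 1.33 (adjusted p = 0.0169). No sign changed, and over the fits with 1 array left out the difference of Ncr1 stayed within 2.13 to 2.96 and that of Crtam within 1.08 to 1.23. The 16 called genes picked from the lists by lowest p depended on the arrays as well. Without wild type replicates 1, 2 and 3 the call held for 1, 2 and 1 of them, and without knockout replicates 1, 2 and 3 for 16, 10 and 7. Klra8 was called in 6 of 6 such fits, while Cdh1, Prdm1, Trgv4, Nrp1 and Il2ra were called in 1 each.

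**Figure D5:**
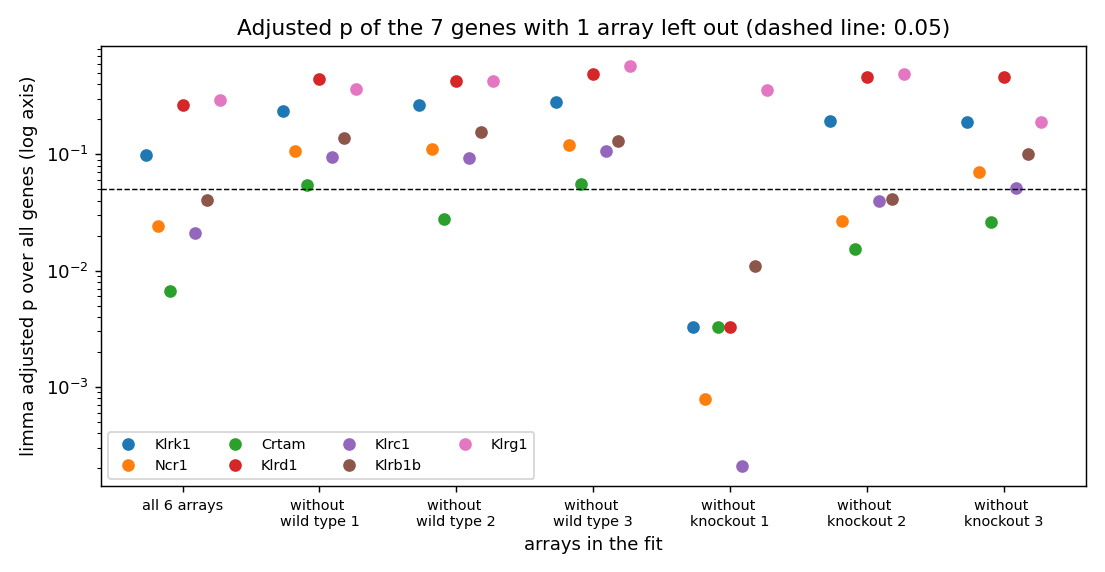
Limma adjusted p over all genes (vertical log axis) of the 7 genes with all 6 arrays and with 1 array left out (horizontal axis), with the 0.05 threshold dashed. Leaving out a wild type array puts most genes above the line, and leaving out knockout replicate 1 puts 6 of the 7 below it.

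For each gene that rose, the genes with the most similar pattern were found by the root mean square difference of centred log2 values over the 6 arrays, among genes at or above the median level. Crtam was closest to Ctla2a (0.084), which read 7.23 to 7.40 in wild type and 8.32 to 8.69 in the knockout, and to Cap1 (0.136). Klrc1 was closest to Car2 (0.195) and Ltb4r1 (0.203). Klrb1b was closest to Adam8 (0.287) and Tmem176b (0.307), and Ncr1 to Anxa1 (0.371) and Tmem176a (0.378). Among the 7 genes themselves, the closest pair was Klrc1 and Klrk1 (0.261), followed by Klrb1b and Ncr1 (0.301). Such distances also depend on how alike the knockout differences of a pair are in size. The least alike were Klrg1 and Ncr1 (1.18).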

How the data were processed

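Transcript levels were measured on 6 arrays of biotin-labelled total RNA, 3 per group by the titles in the labels. The deposited log2 values are RMA summaries per probe set, per the submitters' processing notes, with version and settings not given in the sources used here. Probe sets were named through the platform annotation (22690 in all, of which 64 controls, 20380 with 1 symbol, 691 with several, 1555 with none). The fit used limma 3.58.1 under R 4.3.3, with lmFit and eBayes, over all 12393 genes, each by its brightest probe set, with no filter, and over all probe sets for the others, with Benjamini-Hochberg adjustment, two-sided, called under 0.05. Differences are knockout minus wild type. The members, lists and tests were chosen with earlier results of these data known.

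Named genes were the members, Dnmt1, Foxp3, up to 3 called genes with the lowest p per list (or the 1 with the lowest p) and the 2 nearest patterns per called member. Klrb1a, Klrc2, Klrc3, Clec2d, Cadm1, Tyrobp, Hcst, Ptpn6, Eomes, Tbx21, Gzma, Prf1 and Itga2 were added for their roles, and Cd244a, Nkg7, Sox13 and Zbtb16 as markers, after their values were seen, as were the comparison of Klrc1 and Klrk1 with Klrd1, the Runx motif and the NK marker sum without Gzma. Cdh2, Cdh4, Cd247, Il18rap, Id2 and Tox were likewise added after their values were seen. In 20 simulated data sets of 12393 genes with 200 changed, log2 rises of 0.5, 1 and 2 were called in 44.4%, 84.5% and 97.9% of cases. These rates need not hold for members with a wide knockout spread. Klrk1, with a knockout SD of 0.70, was not called at a difference of 1.27. Alternatives were median centring, quantile normalisation, leaving out the dimmest 40% of genes, array weights, averaged or separately tested probe sets, a replicate block, eBayes with trend and robust options, and leaving out each array. Exact permutation tests used scipy 1.17.1 in Python 3.11.15, and figures matplotlib 3.10.9.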

Additional observations from a re-analysis of the deposited data

How the results depend on the processing

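The 4 genes called higher became 2 with trend and robust variance and 0 to 6 with 1 array left out, and the count called lower stayed at 0 under each alternative run. Over all genes, 17 to 358 were called higher and 3 to 186 lower with 1 array left out. The 71 genes called lower became 113 with trend and robust variance, 110 with array weights and 35 with the replicate block. The excess of activating over inhibitory genes went from 0.21 to 0.47 with the probe sets of a gene averaged and to 0.069 without knockout replicate 3. No difference of the 7 genes changed sign. The labels number both groups 1 to 3, but deviations of same-numbered arrays correlated at -0.07, 0.13 and -0.00, so the numbers were not taken to pair the samples, and under the replicate block Klrb1b was at an adjusted p of 0.0790. Median centring and quantile normalisation moved the median of all genes to -0.04 and -0.02. With 3 arrays per group and RMA values compressed near the floor, small changes of dim genes such as Klrc2 and Klrc3 may not be detectable.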
